A study of Homo sapiens with 4 samples.

Results

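The genes of vesicle coats, tethers and SNAREs were followed through an immunodepletion of N1-methyladenosine (m1A) modified messenger RNA. Members were taken by symbol from the deposited gene table: COPI genes, all genes named SEC, VPS, SNX, TRAPPC, AP1 to AP5, EXOC or COG followed by a number, and the VAMP and STX genes with a number, without SECISBP and STXBP genes. The rule found 107 of the 6434 genes in the table. It used no measured value. All 107 symbols are current in RefSeq (GRCh38.p14), where 191 protein-coding genes match the same rule. The gene table has a block of 5210 genes for which the study found 1 m1A peak, called one-peak genes here, and a block of 1224 in which it found none, called non-m1A genes. Matching genes outside both blocks are not analysed here.

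Per the labels, the cells were HepG2, a line from a human liver tumour, grown without further treatment, and their poly(A)-selected RNA was hybridised to Affymetrix arrays. The supernatant arrays (n = 2) held what an anti-m1A antibody had left behind, and the input arrays (n = 2) held the same kind of RNA before depletion. The gene table marks its columns by the letters A and B, with 1 supernatant and 1 input under each letter, and columns of the same letter are called a pair here. Separate cultures are not mentioned in the labels. P-values therefore cover only how far these samples differ from each other, and that spread may be technical. The RNA is bulk, so an input intensity cannot tell fewer cells of a type from less RNA per cell.

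Of the hepatocyte markers in the gene table, TFR2 and APOE had dim input intensities of 22.1 ± 3.57 and 31.9 ± 1.27 (SD, n = 2). VIM, LGALS1 and CAV1, known from mesenchymal or squamous lines, had input intensities of 6210 ± 508, 3957 ± 329 and 862 ± 148, while COL1A1, a mesenchymal marker, had 51.9 ± 2.89 and CD68, a macrophage marker, 36.2 ± 8.64 (SD, n = 2). The other 5 of these 10 markers of other cell types are not in the table. Intensities of different genes come from different probes and were not compared as abundances. The table names no cell line, and albumin and 16 others of the 20 hepatocyte markers looked for are not among its genes, so the identity of the cells could not be checked further.

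Proteins for secretion enter the endoplasmic reticulum (ER) through a translocon and leave it in vesicles coated by COPII. COPI carries vesicles back from the Golgi, and clathrin adaptors sort cargo between the Golgi, endosomes and the plasma membrane. Tethers such as TRAPP, COG, GARP and the exocyst hold an arriving vesicle at its target. SNAREs on both membranes then pull the membranes together and fuse them, and sorting nexins, retromer, ESCRT and HOPS act on endosomes and lysosomes. The antibody binds m1A, so a transcript that often carries it should be depleted from the supernatant.

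No trafficking gene passed the test in either direction. With limma across all genes, 0 of 107 members were lower and 0 higher at a Benjamini-Hochberg adjusted p under 0.05, against 0.0% lower and 0.0155% higher of all genes. At an unadjusted p under 0.05, 0 members were lower and 1 was higher, against 0.622% and 1.4% of all genes. The median log2 change (supernatant minus input) was 0.05 over the members and 0.04 over all genes, with quartiles of 0.00 and 0.11 and of -0.02 and 0.11. The sign of the members' median followed the scaling, since it was -0.02 after recentring on the non-m1A medians, where the median of all genes was -0.03. By role, recentring left a median above 0 in the adaptors (0.03), TRAPP (0.02), GARP and EARP (0.12) and the sorting nexins (0.01), and a median below 0 in the other 10 groups. Individual members ran from -0.29 in VPS37C to 0.35 in TRAPPC2.

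Both supernatant values lay below both input values in 6 members, 5.61%, against 6.37% of all genes. Both lay above in 20 members, 18.7%, against 16.6% of all genes. These shares are near the background and say nothing particular about the members. In the unpaired fit, the median 95% interval of a member's log2 change reached 0.300 to either side. A loss of 18.8% of a transcript is thus about the smallest that such an interval would separate from 0. That fit counts differences between the column letters as spread, and no such interval is given here for the fit with the letters.

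**Figure D1:**
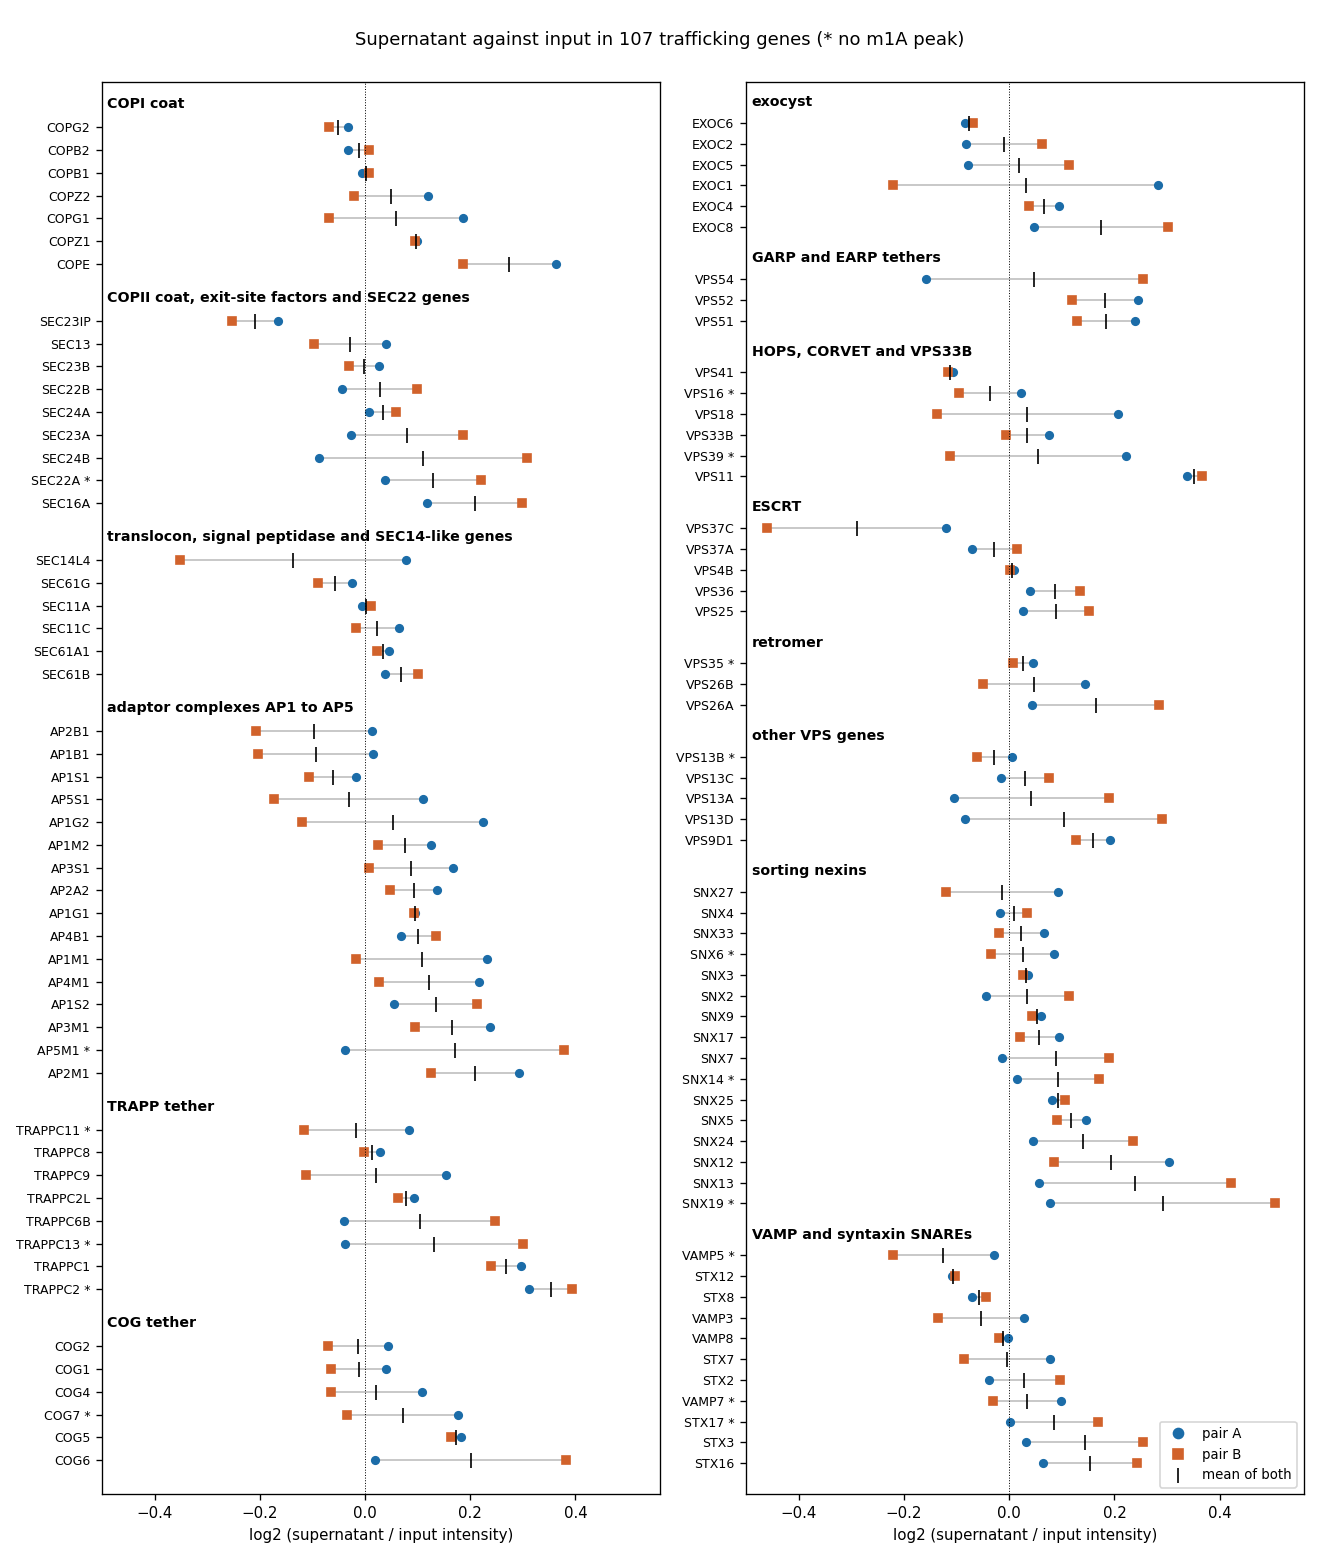
Log2 ratio of supernatant over input intensity for each of the 107 genes, grouped by role, with circles for pair A, squares for pair B and a tick for their mean; an asterisk marks the 16 genes without an m1A peak. In 51 genes the pairs lie on opposite sides of 0; SEC23IP, VPS41 and VPS37C lie left of 0 in both pairs, and COPE, TRAPPC1, TRAPPC2 and VPS11 lie well to the right of 0 in both.

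The members at both ends of the range are shown with the stretch of genome just before their start, because m1A in messenger RNA is known from the GC-rich first part of transcripts. SEC23IP and VPS41 stand for the low end and VPS11, COPE and TRAPPC2 for the high end, a choice made after their values were seen. VPS37C had no entry in the sequence table. The sequences are RefSeq's, build GRCh38.p14, 100 bases ending just before the annotated start, 5′ to 3′ on the gene's strand, with each CG dinucleotide in capitals. They lie at chr10:119892630-119892729 on the plus strand (SEC23IP), chr7:38909192-38909291 on the minus strand (VPS41), chr11:119067718-119067817 on the plus strand (VPS11), chr19:18919388-18919487 on the minus strand (COPE) and chrX:13734621-13734720 on the minus strand (TRAPPC2).
SEC23IP: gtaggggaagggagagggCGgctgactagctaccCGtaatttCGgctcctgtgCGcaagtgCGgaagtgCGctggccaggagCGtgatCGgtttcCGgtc
VPS41: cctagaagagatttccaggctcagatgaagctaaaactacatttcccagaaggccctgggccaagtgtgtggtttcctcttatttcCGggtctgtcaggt
VPS11: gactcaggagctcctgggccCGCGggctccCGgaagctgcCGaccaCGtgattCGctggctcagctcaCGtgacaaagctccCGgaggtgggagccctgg
COPE: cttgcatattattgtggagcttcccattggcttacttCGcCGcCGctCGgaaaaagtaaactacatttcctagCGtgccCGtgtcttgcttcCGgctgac
TRAPPC2: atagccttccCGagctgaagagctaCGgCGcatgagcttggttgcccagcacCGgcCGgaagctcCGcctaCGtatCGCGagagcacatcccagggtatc

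GC content did not line up with the ends of the range in these stretches. SEC23IP had 63% GC with 9 CG dinucleotides and VPS41 49% with 1. VPS11 had 69% with 8, COPE 51% with 7 and TRAPPC2 62% with 9. The median was 69% in the 82 one-peak members with a sequence and 68% in the 12 non-m1A members, with medians of 10 and 10.5 CG dinucleotides. Over all one-peak genes it was 69% (4015 with a sequence) and over all non-m1A genes 67% (911 with a sequence), against 60% over all 27305 RefSeq promoters of the table. A CG was found in this window in 97.9% of the members (94 with a sequence), in 98.6% of all one-peak genes, in 95.7% of all non-m1A genes and in 83.7% of all promoters. CG reads the same on both strands and cannot overlap another CG. The window lies outside the transcript, and the gene table gives no peak position.

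The low end of the range was led by an ESCRT gene and a COPII-associated gene. VPS37C is a subunit of ESCRT-I, which sorts ubiquitinated cargo at endosomes. VPS37C had intensities of 162 and 150 in supernatants A and B, against 177 and 207 in inputs A and B. Both supernatants were below both inputs, and the difference was larger in pair B (-0.46) than in pair A (-0.12, both log2). Its log2 change was -0.29 ± 0.12 (SE), with a 95% interval of -0.61 to 0.03, and did not pass (limma adjusted p = 1.00).

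SEC23IP, a partner of the COPII subunit SEC23 at ER exit sites, had 76.0 and 64.7 in the supernatants, against 85.2 and 77.1 in the inputs. The groups were apart by only 0.02 on the log2 scale. Its log2 change was -0.21 ± 0.12 (SE), and the pairs gave -0.17 (A) and -0.25 (B). VPS41, a HOPS subunit that tethers vesicles to late endosomes and lysosomes, had 98.3 and 98.9 in the supernatants, against 106 and 107 in the inputs. Its columns agreed closely within each group, and the log2 change was -0.11 ± 0.08 (SE). STX12, an endosomal syntaxin, had 54.5 and 55.3, against 58.8 and 59.4 in the inputs, a log2 change of -0.11 ± 0.08 (SE). None of these passed.

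VPS11, a core subunit shared by the HOPS and CORVET tethers, was the member with an unadjusted p under 0.05. Its intensities were 78.9 and 88.4 in supernatants A and B, against 62.5 and 68.6 in inputs A and B. Both supernatants were above both inputs, with log2 ratios of 0.34 (pair A) and 0.37 (pair B). The log2 change of 0.35 ± 0.11 (SE) had a 95% interval of 0.06 to 0.64 and did not pass over all genes (unadjusted p = 0.0280, limma adjusted p = 1.00).

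TRAPPC2, a small subunit of the TRAPP tether, had 126 and 107 in the supernatants, against 101 and 81.3 in the inputs. The groups did not overlap, and the log2 change was 0.35 ± 0.16 (SE). RefSeq also lists TRAPPC2B, a near-identical copy on chromosome 19, and the probes behind the value are not given, so TRAPPC2 and its copy cannot be told apart here. VPS11 and TRAPPC2 had almost the same mean ratio of supernatant over input, 1.276 and 1.278. VPS11 is listed as a one-peak gene and TRAPPC2 as a gene without an m1A peak. Both were picked as the highest members. Log2 changes of all one-peak genes ended at 0.37, while those of all non-m1A genes reached 4.84. The likeness of the ratios therefore does not show whether a peak matters.

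**Figure D2:**
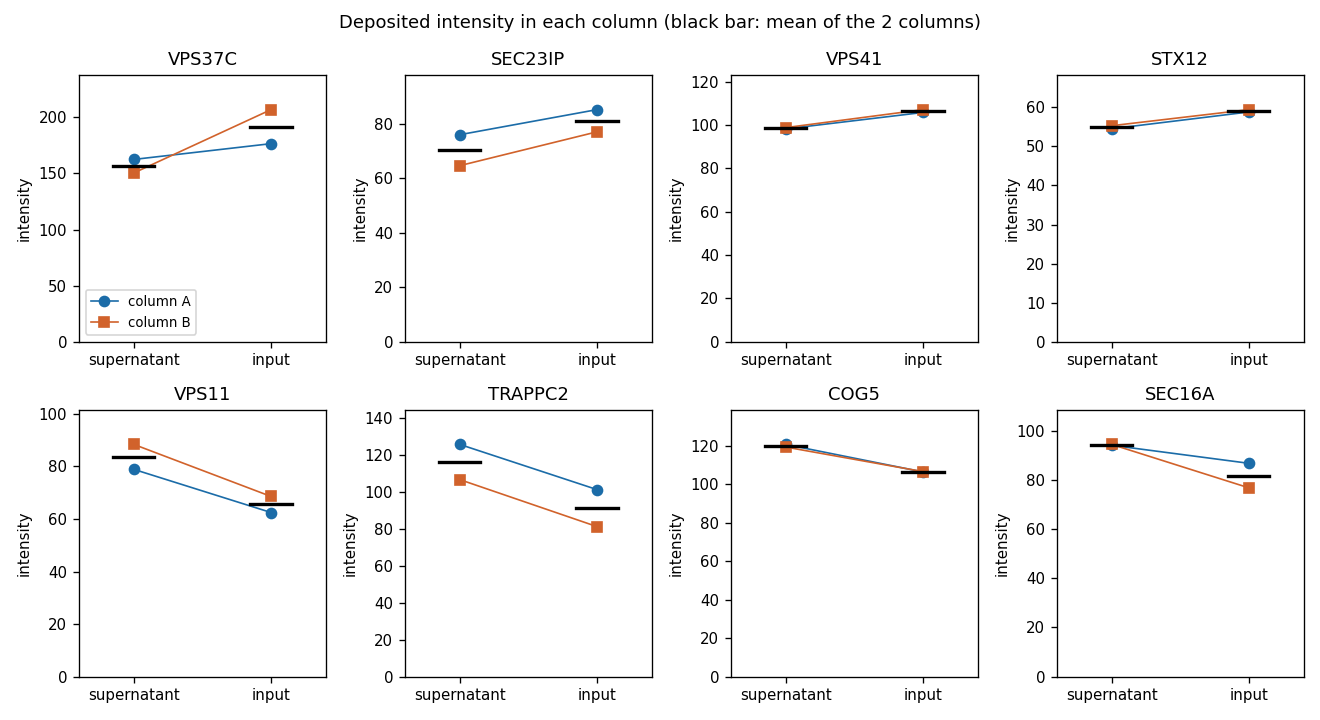
Deposited intensity of 8 genes in each column, supernatant left of input, with circles for column A, squares for column B, lines joining columns of the same letter and black bars for the mean of the 2 columns. The upper row holds the 4 genes with the lowest moderated statistic and the lower row 4 genes with the highest; in VPS37C the inputs (177 and 207) differ more than the supernatants (162 and 150).

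At the entry to the pathway, log2 changes in the translocon, signal peptidase and SEC14-like genes lay between -0.14 and 0.07. SEC61G and SEC61B, the small translocon subunits, had log2 changes of -0.06 ± 0.10 and 0.07 ± 0.09 (SE). SEC61G stood at 4489 and 4751 in the supernatants, against 4568 and 5052 in the inputs, and the columns overlapped. SEC61B stood at 3655 and 3716, against 3561 and 3465 in the inputs, so both supernatants were higher by a small margin. SEC11A, a catalytic subunit of signal peptidase, had 3267 and 3178, against 3281 and 3154 in the inputs, a log2 change of 0.00 ± 0.09 (SE). SEC14L4, a lipid-binding protein gene, had 45.9 and 41.5, against 43.5 and 52.9 in the inputs, with opposite signs in the pairs. None of the 6 genes of this group passed, and their median log2 change was 0.01.

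COPII and its exit sites were represented by 9 of 15 genes, with a median of 0.03. SEC16A, the scaffold of ER exit sites, stood at the other end from SEC23IP. Its intensities were 94.0 and 94.4 in the supernatants, against 86.7 and 76.7 in the inputs, a log2 change of 0.21 ± 0.10 (SE). The coat subunit SEC13 had 1481 and 1534, against 1441 and 1642 in the inputs, and the columns overlapped. SEC22B, an ER-Golgi SNARE gene, and its relative SEC22A fell in different blocks of the table. SEC22A, without a peak, had 109 and 126 in the supernatants, against 106 and 108 in the inputs. SEC22B, with a peak, had 308 and 319, against 317 and 298 in the inputs. Their log2 changes were 0.13 ± 0.11 and 0.03 ± 0.09 (SE), and their difference was not tested.

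By the symbol rule, COPI had 7 of 8 genes in the table, all of them one-peak genes, and a median of 0.05. ARCN1, a COPI subunit whose symbol the rule does not match, had a log2 change of 0.01 ± 0.14 (SE). COPE, the epsilon subunit, had 489 and 560 in the supernatants, against 380 and 493 in the inputs. Pair A gave a log2 ratio of 0.36 and pair B one of 0.19, but supernatant A lay below input B, so the groups overlapped. Its log2 change was 0.27 ± 0.16 (SE) and did not pass. COPG2, a gamma subunit, was the lowest, with 101 and 116, against 104 and 122 in the inputs. The other 5 COPI members had log2 changes between -0.01 and 0.10.

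Of the tethers, TRAPP had 8 of 17 genes and the median was 0.09. TRAPPC1 had 115 and 147 in the supernatants, against 93.8 and 125 in the inputs, a log2 change of 0.27 ± 0.20 (SE). Its columns differed more by letter than by group, and input B was above supernatant A. TRAPPC11 and TRAPPC13, both non-m1A genes, had log2 changes of -0.02 ± 0.11 and 0.13 ± 0.22 (SE), and TRAPPC8 and TRAPPC9 of 0.01 ± 0.11 and 0.02 ± 0.24 (SE).

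COG, the tether of retrograde Golgi vesicles, had 6 of 8 genes and a median of 0.05. COG5 had 121 and 119 in the supernatants, against 106 and 107 in the inputs, a log2 change of 0.17 ± 0.08 (SE), with the groups apart by 0.16 on the log2 scale. COG6 had 66.6 and 56.5, against 65.7 and 43.3 in the inputs, so pair A gave a log2 ratio of 0.02 and pair B one of 0.38. COG1, COG2, COG4 and COG7, the last without a peak, had log2 changes between -0.01 and 0.07.

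The exocyst, which tethers secretory vesicles at the plasma membrane, had 6 of 13 genes and a median of 0.02. EXOC6 had 115 and 110 in the supernatants, against 121 and 115 in the inputs, and the groups did not overlap by a margin of 0.01 on the log2 scale. EXOC8 had 115 and 107, against 112 and 86.4 in the inputs, a log2 change of 0.18 ± 0.15 (SE). In GARP, which tethers endosome-derived vesicles at the Golgi, VPS51 had 242 and 269, against 205 and 246 in the inputs, a log2 change of 0.18 ± 0.13 (SE). VPS54 had 186 and 194, against 207 and 162 in the inputs, with opposite signs in the pairs.

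The adaptor complexes AP1 to AP5, which select cargo into vesicles, were represented by 16 of 28 genes, with a median of 0.09. Both supernatants lay above both inputs in 5 of them, against 16.6% of all genes, and below both in 1, AP1S1, against 6.37%. AP2M1, the cargo-binding mu subunit at the plasma membrane, had 1036 and 1059 in the supernatants, against 846 and 971 in the inputs. Its log2 change was 0.21 ± 0.11 (SE). AP3M1, the mu subunit of the adaptor for lysosome-related traffic, had 176 and 165, against 150 and 154 in the inputs, a log2 change of 0.17 ± 0.09 (SE). Neither passed. The lowest adaptor was AP2B1, a large AP2 subunit, with 412 and 503, against 409 and 581 in the inputs, and its columns differed more by letter than by group. AP1S1, the sigma subunit of AP1, had 291 and 282, against 295 and 303 in the inputs, a log2 change of -0.06 ± 0.09 (SE). AP5M1, the only adaptor without a peak among the 16, had 69.1 and 59.5, against 70.9 and 45.8 in the inputs.

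On endosomes, complexes were divided between the blocks of the table. Of the HOPS and CORVET genes, VPS11, VPS18 and VPS41 had a single peak, and VPS16 and VPS39 had none. VPS16 had 213 and 219 in the supernatants, against 210 and 234 in the inputs, and VPS39 had 77.2 and 82.7, against 66.2 and 89.4. VPS18 had 102 and 95.5, against 88.0 and 105 in the inputs. Their log2 changes were -0.04 ± 0.10, 0.05 ± 0.17 and 0.03 ± 0.12 (SE), and the differences between these genes were not tested.

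Retromer, which returns receptors from endosomes to the Golgi, was divided in the same way. VPS35, its scaffold, had no peak and had 554 and 543 in the supernatants, against 536 and 540 in the inputs, a log2 change of 0.03 ± 0.09 (SE). VPS26A, with a peak, had 314 and 296, against 305 and 243, a log2 change of 0.16 ± 0.14 (SE). In the ESCRT genes named VPS, apart from VPS37C, the log2 changes lay between -0.03 and 0.09. VPS25 and VPS36, both of ESCRT-II, had 0.09 ± 0.10 and 0.09 ± 0.13 (SE). ESCRT genes outside the symbol rule reached further both ways. They ran from -0.12 ± 0.09 in SNF8, also of ESCRT-II, to 0.20 ± 0.12 in STAM (SE). Of the bridge-like lipid transport genes VPS13A to VPS13D, VPS13B had no peak and 43.4 and 42.0 in the supernatants, against 43.2 and 43.9 in the inputs, while VPS13A, VPS13C and VPS13D had log2 changes between 0.03 and 0.10. VPS9D1 had 110 and 112, against 96.1 and 103 in the inputs, a log2 change of 0.16 ± 0.09 (SE).

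Sorting nexins bind phosphoinositides on endosomes, and 16 of 30 were listed. The log2 change was above 0 in 15 of the 16, at a median of 0.07, against 4367 of all 6434 genes, 67.9%. The count changed with the scaling, as did the share of all genes. After recentring on the non-m1A medians 8 of the 16 were above 0, against 38.7% of all genes. After quantile normalization 12 of the 16 were above 0, against 50.2% of all genes. None of the 16 passed. Without a new scaling, 10 were above 0 in both pairs, against 40.3% of all genes, and this count was not repeated under the other scalings. SNX19, a non-m1A gene and the dimmest member, had 32.1 and 28.7 in the supernatants, against 30.4 and 20.2 in the inputs. SNX13 had 87.1 and 87.4, against 83.8 and 65.3 in the inputs. In both genes the low input B made most of the difference, with log2 ratios of 0.08 and 0.06 in pair A, against 0.51 and 0.42 in pair B. SNX12 had 450 and 416, against 365 and 393 in the inputs, a log2 change of 0.19 ± 0.10 (SE). The lowest was SNX27, an adaptor of retromer, with 92.1 and 84.4, against 86.4 and 91.8 in the inputs. SNX6 and SNX14, both without a peak, had log2 changes of 0.03 ± 0.09 and 0.09 ± 0.11 (SE), and SNX2, SNX3, SNX4, SNX5, SNX7, SNX9 and SNX17, with a peak, lay between 0.01 and 0.12.

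Among VAMP and syntaxin SNAREs, 11 of 23 were listed and the median log2 change was 0.00, with 5 above 0 and 6 below. Of all genes, 67.9% were above 0. After recentring on the non-m1A medians 3 of the 11 were above 0, against 38.7% of all genes. Quantile normalization also left 3 of the 11 above 0, against 50.2% of all genes. The difference from all genes was not tested. STX16, a trans-Golgi syntaxin, was the highest, with 553 and 624 in the supernatants, against 529 and 527 in the inputs, a log2 change of 0.15 ± 0.10 (SE). VAMP5 was the lowest by log2 change, with 36.6 and 42.9, against 37.4 and 50.0 in the inputs, a change of -0.13 ± 0.18 (SE). VAMP5 and VAMP7 had no peak and VAMP3 and VAMP8 had 1. VAMP7, a lysosomal SNARE, had 790 and 851, against 738 and 869 in the inputs, and VAMP8, an endosomal SNARE, had 1499 and 1643, against 1501 and 1667. STX17, an autophagosomal syntaxin without a peak, had 38.0 and 39.5, against 37.9 and 35.1 in the inputs. The columns of a group differed by more than the groups in VAMP7 and VAMP8.

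Whether a peak goes with a loss can be put to these genes as a description. A single peak was listed for 91 of the 107 members, 85.0%, against 81.0% of all genes. The log2 change had a median of 0.05 over the 91 one-peak members and of 0.06 in the 16 non-m1A members, against 0.04 and 0.07 in all one-peak and all non-m1A genes. Both supernatants lay below both inputs in 6 of the 91 one-peak members, 6.59%, against 6.24% of all one-peak genes. The same held in 0 of the 16 non-m1A members, against 6.94% of all non-m1A genes. Log2 changes of all one-peak genes ended at 0.37, while those of all non-m1A genes reached 4.84. Median input intensities were 216 and 44.8 in these blocks, and 152 and 84.6 in their members. Because the blocks differ in range and brightness, these values cannot decide whether a peak goes with a loss.

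The pairs ordered the members differently. The log2 ratio was above 0 in 76 members in pair A and in 65 in pair B. It was above 0 in both pairs in 45 members, 42.1%, against 40.3% of all genes, and below 0 in both in 11, 10.3%, against 14.4%. In the other 51 the pairs had opposite signs. Across the 107 genes, which share the same 4 arrays and are not independent replicates, Pearson's r between the pair A and pair B ratios was 0.0859 and Spearman's rho 0.00498, given as a description. The median difference between the pairs was 0.166 on the log2 scale in the 53 dimmer members and 0.133 in the 54 brighter ones.

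The letter of a column went with larger differences than the antibody did. The median absolute difference was 0.0711 between supernatant and input and 0.118 between B and A columns (log2), and the letter difference was the larger in 72 of 107 members. Over all genes these medians were 0.0671 and 0.130, and the letter difference was the larger in 4490 of 6434. The B minus A differences of the supernatants and of the inputs had a Pearson's r of 0.710 over the 107 genes, given as a description. The sources used here do not say what the letters stand for, and their part in the results was not tested.

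**Figure D3:**
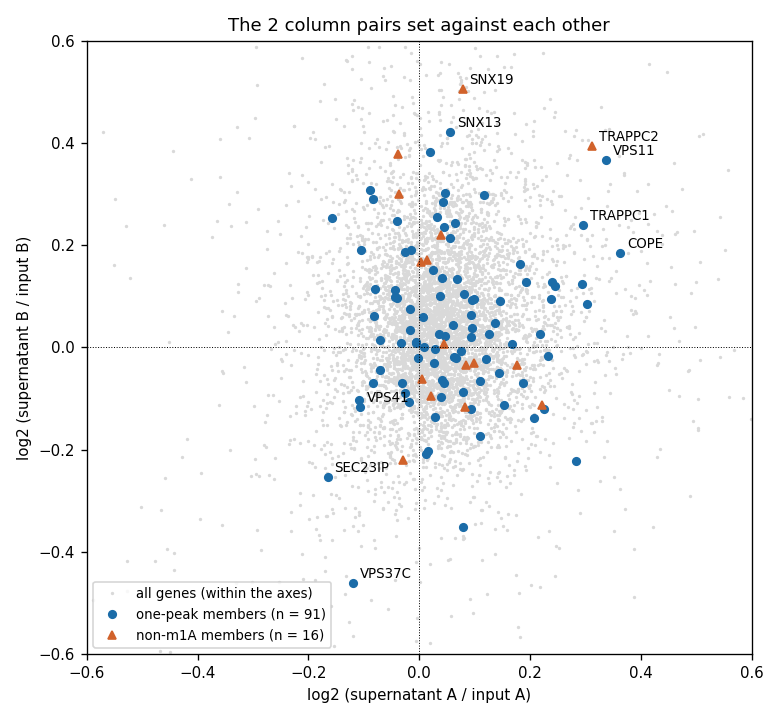
Log2 ratio of supernatant over input in pair A (horizontal) against pair B (vertical) for one-peak members (circles, n = 91), non-m1A members (triangles, n = 16) and all genes within the axes (grey dots). The members form a round cloud within that of all genes, with VPS37C and SEC23IP low in both pairs and VPS11, TRAPPC2, TRAPPC1 and COPE high in both.

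For each one-peak gene the authors' deposited table gives a methylated fraction. The median over the 91 members in the authors' deposited table was 0.20, with quartiles of 0.16 and 0.23, against a median of 0.21 with quartiles of 0.17 and 0.23 over all one-peak genes. The highest fractions in the authors' deposited table were 0.36 in VPS37C, 0.33 in SEC23IP, 0.29 in SEC14L4, 0.28 in VPS41 and STX12 and 0.27 in AP1B1, AP2B1 and EXOC6. The lowest in the authors' deposited table were 0.01 in VPS11, 0.06 in COPE, 0.07 in TRAPPC1, 0.08 in SNX13 and 0.10 in AP2M1, COG6 and SEC16A. By role, the median in the authors' deposited table ran from 0.12 in the 3 GARP genes to 0.23 in the 8 SNAREs with a peak.

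These fractions depend on a constant. They equal 1 minus the mean of both ratios after division by 1.29, which is the average ratio over the block without a peak, to within 0.00505 in the 91 members. With that divisor, 0 of the 5210 one-peak genes had a fraction below 0, and their lowest deposited fraction was 0. Their log2 changes ended at 0.37, while those of all non-m1A genes reached 4.84. Whether the one-peak block was limited to ratios up to the divisor was not tested, so the count is not read as a result. Without that divisor the median over the members was -0.0358. Of the 91 members, 67, or 73.6%, then had a fraction below 0, that is, more signal in the supernatant. Over all one-peak genes the median was then -0.0271 and 68.4% were below 0. With a divisor of 1.05, the average ratio over those 694 non-m1A genes that are at least as bright as the dimmest one-peak gene, the median was 0.0148 and 37 members, 40.7%, were below 0, against 34.8% of all one-peak genes. VPS37C then had a fraction of 0.216 and SEC23IP of 0.177, while VPS11 had -0.214.

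Fractions within a pair differed by a median of 0.0724 between pairs, with the authors' divisor. SEC14L4 had 0.183 from pair A but 0.393 from pair B, and VPS37C had 0.287 and 0.437. In STX12 and VPS41 the pairs gave 0.282 and 0.280, and 0.281 and 0.286. Without the divisor these last 4 values were 0.0731 and 0.0694 in STX12 and 0.0716 and 0.0776 in VPS41. Dividing by 1.29 thus accounts arithmetically for most of their deposited value.

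**Figure D4:**
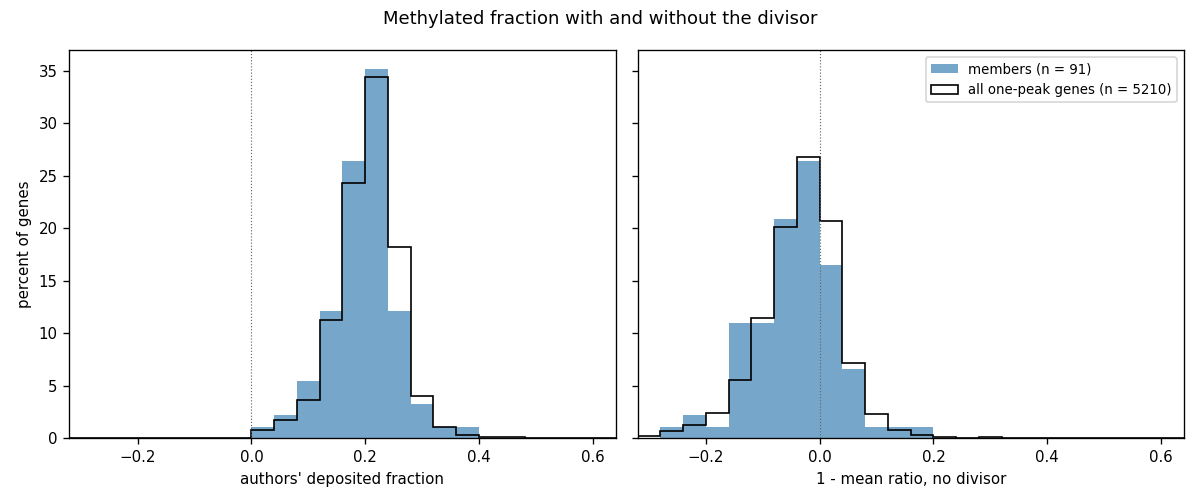
Percent of genes by methylated fraction, for the 91 one-peak members (filled bars) and all 5210 one-peak genes (black outline), as deposited by the authors (left) and as 1 minus the mean ratio with no divisor (right). The members follow the outline in both panels, around a median of 0.20 on the left and of -0.0358 on the right.

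Other genes of vesicle traffic were taken from a list of 117 written with earlier results known. The gene table held 75 of them, 70 with a single peak, and 0 passed in either direction. Their median log2 change was 0.04, with 53 above 0 and 22 below, against 67.9% of all genes above 0. Both supernatants lay below both inputs in 8 of the 75, against 6.37% of all genes. Both lay above in 14 of the 75, against 16.6% of all genes. LMAN1, a cargo receptor between ER and Golgi, was the lowest, with 134 and 134 in the supernatants, against 163 and 177 in the inputs, a log2 change of -0.34 ± 0.09 (SE). Its fraction in the authors' deposited table was 0.39. It did not pass (unadjusted p = 0.0169, limma adjusted p = 1.00). RAB2A, a GTPase of the early secretory pathway, was the highest, with 423 and 398, against 371 and 318 in the inputs, a log2 change of 0.26 ± 0.12 (SE).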

How the data were processed

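The labels describe 4 Affymetrix arrays of poly(A)-selected HepG2 RNA, 2 supernatants and 2 inputs, grouped by sample title. The deposited gene table holds intensities on a linear scale with 4 columns matched to groups by name, per the file headers. The sources used here do not say how they were made; the submitters' processing notes name RMA without saying for which file. The authors' deposited ratio and fraction columns were copied and set against values recomputed from the intensities. The probe set table, which carries no gene names, was not used. The value of 1 hepatocyte marker is not reported here.

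Members and gene lists were chosen with earlier results of these data known. Log2 of the intensities of all 6434 genes, with no filter or offset, was fitted in R 4.3.3. The model was the unpaired lmFit and eBayes of limma 3.58.1. It was also run on simulated data, with planted losses larger than any member's change and no shared letter differences. That run does not cover changes as small as the members'. Adjusted p-values under 0.05 (Benjamini-Hochberg, all genes) counted as passing. With 2 arrays a group, the smallest two-sided p of an exact permutation test is 0.333, and precision is limited by the number of arrays. Python 3.11.15 with NumPy 2.4.6, pandas 2.3.3, SciPy 1.17.1 and matplotlib 3.10.9 did the rest. Named members were the extremes of each role group, the 8 lowest and 8 highest moderated statistics, the ends of the fraction and brightness ranges, members without a peak and relatives in different blocks; other members and the sequences shown were chosen after their values were seen. Alternatives were the replicate block, a trended prior, genes above the median level, an offset of 32, 2 scalings, each column left out and other divisors.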

Additional observations from a re-analysis of the deposited data

How the results depend on the processing

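No member passed under any of the 10 alternatives of the test, with a lowest adjusted p among members of 0.258 (limma, SNX19, without input A). At an unadjusted p under 0.05, between 0 and 1 members were lower and between 0 and 10 were higher. The 10 came from leaving out input A, where 35 genes of the whole table passed (12 without input B, 1 with all columns). The replicate block by column letter is not said to pair the samples; deviations of same-lettered columns correlated at 0.451 over all genes. With the replicate block 0 members passed, 1 was lower and 4 were higher at an unadjusted p under 0.05, and the median change stayed at 0.0479.

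The median log2 change of the members was 0.0339 among genes above the median level (49 members), -0.0190 with columns recentred on non-m1A medians and 0.00403 after quantile normalization; the medians of all genes were then 0.0273, -0.0259 and 0.000384. With a column left out it lay between 0.0405 and 0.0542. Recentring turned the sign of 33 of 107 members and leaving out input B that of 44, among them 2 of the 16 with the most extreme statistics. The median fraction was -0.0358 with no divisor, 0.0148 and 0.0163 with the mean ratio of bright non-m1A genes and the median ratio of all non-m1A genes as divisor, and 0.207 in pair B alone. The cause of these shifts was not tested beyond the divisor's own size.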
